A study of Mus musculus with 35 samples.

Results

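Retinoic acid is a small vitamin A derivative that cells make from retinol and sense through nuclear receptors. The 9 genes described here cover that route in mouse embryonic stem (ES) cells driven towards primitive endoderm (PrE), the extraembryonic lineage that lines the early yolk sac. They were Stra6, Crabp1, Crabp2, Rdh10, Aldh1a1, Aldh1a2, Cyp26a1, Dhrs3 and Rarb, picked by gene name for their roles in retinoid uptake, synthesis, breakdown and response, and they are 9 of the 44853 genes in the table of the induction series. Of these, 5 (Stra6, Crabp1, Crabp2, Rdh10 and Cyp26a1) are among the 6275 genes of the table of the Oct4 knockdown.

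The induction series held 23 RNA-seq libraries. KH2 ES cells (a C57BL/6 x 129/Sv line), carrying a doxycycline-inducible GATA6 cassette, were taken without doxycycline (0 h) and after 16, 24, 48, 72, 96 and 168 h of 1 µg/mL doxycycline (Dox), with 3 libraries at each time. The comparison line was X10, wild-type XEN cells, a line derived from extraembryonic endoderm, of CD1 background and grown without Dox or LIF, with 2 libraries. The knockdown series held 6 libraries nucleofected with a control siRNA (siCTL) and 6 with an siRNA against Oct4 (siOct4), all plated in Dox for 48 h, in cells of the single clone G6.3; the clone of the induction series was not given in the sources used here. All groups but XEN therefore carried the inducible cassette. The ES cells were grown with serum and LIF on mouse fibroblast feeders, which were removed by a short adsorption before lysis. XEN cells were also grown with serum on feeders, and the methods describe the adsorption before lysis for the inducible ES cells. XEN differed from the induced cells in strain, derivation and medium at the same time, which cannot be told apart. Values are gene-level TPM (a level scaled for gene length and for the total of the library), so they can be compared between genes, while the read depth behind them is unknown.

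Gata6, which in these values adds the cassette to the endogenous gene, was between 0.193 and 0.375 TPM at 0 h and between 129 and 138 TPM at 16 h. All 12 listed PrE markers were called higher and all 8 listed ES markers lower at 168 h than at 0 h, by the thresholds given below. Of all 15057 genes tested in that comparison, 39.1% were called, 3396 higher and 2491 lower. A list of 12 feeder fibroblast markers summed to between 48.3 and 142 TPM at 0 h and to between 167 and 340 TPM at 168 h, with 7 of the 12 higher, 5 mesoderm markers summed to at most 11.5 TPM in any KH2 library of the induction series, and 5 neural markers summed to at most 8.89 TPM there. In all 7 KH2 groups, 0 h included, libraries 1 and 2 were the closest pair, and library 3 had the highest feeder marker sum in 6 of 7 groups, with single markers highest there in 2 of 7 (Fbln5) to 7 of 7 groups (Thy1, Lum and Dcn). In bulk RNA, fewer cells of a type and less RNA per cell cannot be told apart.

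As background, retinol circulates on the binding protein RBP4 and enters cells through STRA6. Retinol dehydrogenases such as RDH10 oxidise it to retinal, DHRS3 turns retinal back into retinol, and retinaldehyde dehydrogenases (the ALDH1A family) complete the synthesis. CRABP1 and CRABP2 carry retinoic acid in the cytoplasm, CYP26 enzymes degrade it, and RAR receptors paired with RXR partners bind direct repeats of a 6-base unit in the DNA next to target genes. Cyp26a1, Rarb, Stra6 and Dhrs3 are well known to respond to retinoic acid, and retinoids have long been used to drive endoderm-like differentiation of embryonal carcinoma cells.

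The spacing of those direct repeats by 5 bases (DR5) was looked for in RefSeq promoter windows on GRCm38.p6, each running from 250 bases before to 50 bases after a transcript start, with AGGTCA, the form AGTTCA, or either of these begun with G as the unit, and reading both strands. It was in 32 of 32851 windows (0.0974%). Windows were given for 7 of the 9 genes, 13 windows in all, and the DR5 was in that of Rarb and in that of Cyp26a1. The elements are shown because both genes are among those that rose, with 6 bases on either side, in lower case, and the DR5 itself in capitals, each read 5′ to 3′ on the strand where the unit has the spelling above.
Rarb: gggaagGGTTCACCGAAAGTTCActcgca
Cyp26a1: caaattAGTTCACCCAAAGTTCAtcttta
The Rarb stretch is chr14:16575507-16575535 on the minus strand, which is the strand of the gene, with the element beginning 53 bases before the RefSeq start. In GENCODE M21 it lies inside the span of the gene and overlaps an exon of 2 Rarb transcripts. The Cyp26a1 stretch is chr19:37697770-37697798, read on the minus strand although the gene is on the plus strand, and its element spans the positions from 32 to 16 bases before the start. The 17 bases of the elements differ at 2 positions. None of the 13 windows held the same units spaced by 1 base (0.222% of all windows) or by 2 bases (0.268%). A GATA hexamer (AGATAA, the form TGATAA, or either of these ended with G) was in 1 of 4 Stra6 windows and in both Aldh1a1 windows, against 29.8% of all windows. A match is a run of letters and not a measured binding site, and no match says only that those letters are not in the window. Of the 31 genes with a DR5 window, 6 were expressed highly enough to be tested. Of these 6, Cyp26a1 and Rarb were higher at 168 h, Gm4631 was lower and Cfap45, Ppbp and Blvrb were not called. Over all genes tested 39.1% were called in that comparison. Rarb had a group mean of at least 1 TPM only at 168 h and in XEN, so it was tested only through groups where it was high. The names other than Cyp26a1 and Rarb were taken from the window search and not from a list.

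Across the time course Stra6 and Cyp26a1 rose far, and Rarb, Rdh10 and Dhrs3 rose less. Crabp1, a carrier, was lower at each time from 24 h, and Crabp2, a second carrier, was lower at 48 and 96 h. Aldh1a1 and Aldh1a2 had no call at any time of Dox. A difference was called where limma's adjusted p on log2(TPM + 1) was under 0.05, over 15057 genes with a group mean of at least 1 TPM, and the change was more than 1 on the log2 scale. All 9 genes passed the filter, Aldh1a1 only through XEN and Aldh1a2 only through 24 h, so that their passing depended on their highest group. Stra6, Cyp26a1, Dhrs3 and Rarb also had means below 1 TPM at 0 h (0.0542, 0.156, 0.511 and 0.112 TPM). They passed only through later groups or XEN. The filter thus favours genes that rose, and the counts of the 9 set beside the share of all genes are a description. Against 0 h, 1 of 9 was called at 16 h (Cyp26a1) where 2.77% of all genes were called. At 24 h 2 of 9 were called (background 5.68%) and at 48 h 4 of 9 (16.4%). At 72 and 96 h 5 of 9 were called (26.2% and 29.5%), and at 168 h 6 of 9, 5 higher and 1 lower (39.1%). Between XEN and 0 h 7 of 9 were called (37.6%), 6 higher and 1 lower. The order in which genes were first called was Cyp26a1 at 16 h, Crabp1 at 24 h, Stra6 and Crabp2 at 48 h, Rdh10 and Dhrs3 at 72 h and Rarb at 168 h, while Aldh1a1 and Aldh1a2 were called at none of the 6 times.

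**Figure D1:**
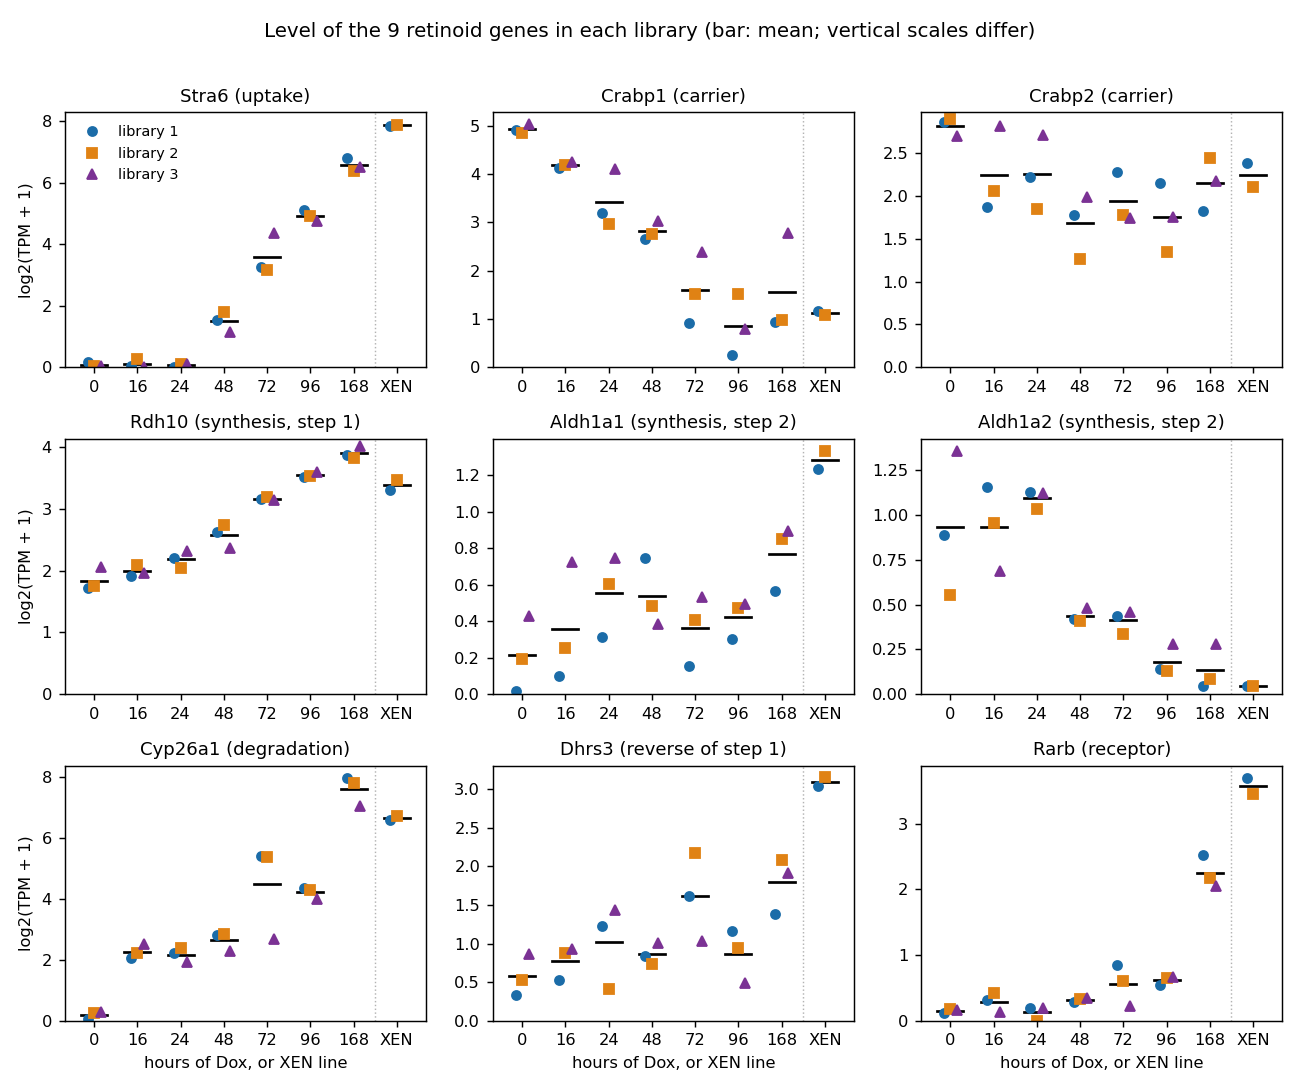
Level of each gene as log2(TPM + 1) on the vertical axis, whose scale differs between panels, against hours of Dox and XEN on the horizontal axis; each point is a library, its shape and colour the library number, and the bar is the group mean. Stra6 climbs from near 0 at 24 h to 233 TPM in XEN, Cyp26a1 is above 3 TPM in all but 1 of the libraries from 16 h, and library 3 at 72 h lies apart for Cyp26a1 and Stra6.

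**Figure D2:**
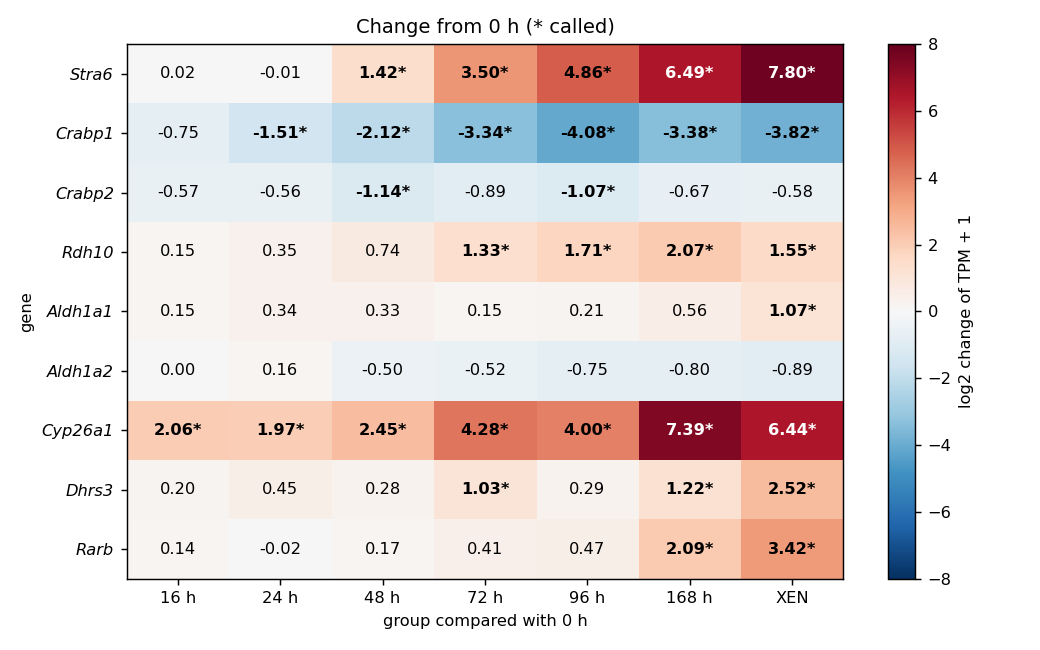
Change from 0 h on the log2(TPM + 1) scale for the 9 genes (rows) at 6 times of Dox and in XEN (columns), red for higher and blue for lower, with an asterisk where the change was called. Cyp26a1 is called in every column, and the changes of Stra6 run from 1.42 at 48 h to 7.80 in XEN.

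Steps between successive times show when the changes fell. From 16 to 24 h none of the 9 was called (background 0.352%), and none reached an unadjusted p under 0.05 in limma either. From 24 to 48 h Stra6 was the single gene called (5.56%). From 48 to 72 h Stra6 and Cyp26a1 were higher and Crabp1 lower, 3 of 9 (3.33%). From 72 to 96 h only Stra6 was called among the 9 (1.71%), and from 96 to 168 h Stra6, Cyp26a1 and Rarb rose, 3 of 9 (7.67%). The Crabp1 call at that step (-1.21, limma adjusted p = 0.040) was lost when any 1 of the 6 libraries of the 48 and 72 h groups but library 3 of 72 h was left out (adjusted p between 0.067 and 0.20). The step from 72 to 96 h depended on library 3 at 72 h: without it 3 of 9 were called, with Cyp26a1 and Dhrs3 lower at 96 h by -1.18 and -1.03 on the log2 scale (adjusted p = 4.8e-04 and 0.0075 in limma).

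Stra6, the membrane receptor for the plasma retinol carrier, is at chr9:58063788-58153996 in mm10, by the GENCODE M21 annotation from which all gene spans here were taken. Its libraries read 0.122, 0.0203 and 0.0203 TPM at 0 h, 0.0203, 0.203 and 0 TPM at 16 h and 0, 0.0608 and 0.0709 TPM at 24 h. At 48 h they read 1.89, 2.49 and 1.21 TPM, at 72 h 8.47, 7.86 and 19.4 TPM, at 96 h 33.4, 29.2 and 26.2 TPM, and at 168 h 111, 82.8 and 89.6 TPM. The first 3 groups overlapped, and from 48 h on no library of a group overlapped those of the group before it. Against 0 h the change after 48, 72, 96 and 168 h was 1.42 ± 0.23 (SE), 3.50, 4.86 and 6.49 on the log2 scale (limma adjusted p = 3.1e-05, 1.0e-10, 6.7e-13 and 5.4e-15). Each step from 24 h on was called in itself, by 1.43, 2.09, 1.35 and 1.63 on the log2 scale (adjusted p = 7.7e-05, 3.8e-06, 0.0012 and 1.4e-05 in limma), though the steps from 48 to 72 h and from 72 to 96 h contain the high library 3 at 72 h, whose feeder markers summed to 188 TPM against 68.3 and 81.6 TPM in libraries 1 and 2. The call from 72 to 96 h was lost with only those 2 groups in the fit (adjusted p = 0.11 in limma) and with libraries 1 and 2 of each group averaged (0.22). XEN read 231 and 236 TPM, above every induced library, and stood 1.31 ± 0.25 above 168 h (limma adjusted p = 3.1e-04). The mean of the XEN libraries placed Stra6 at the 95.8th percentile of the genes tested, against the 2.39th at 0 h.

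Crabp1 (chr9:54764748-54773110), a cytoplasmic retinoic acid carrier, moved the other way. At 0 h it read 29.1, 28.0 and 31.9 TPM, the highest level of any of the 9 genes in undifferentiated cells. It was at 16.5, 17.2 and 18.2 TPM at 16 h, 8.22, 6.80 and 16.3 TPM at 24 h and 5.31, 5.77 and 7.13 TPM at 48 h. At 72 h it was at 0.872, 1.85 and 4.22 TPM, at 96 h at 0.193, 1.87 and 0.741 TPM, and at 168 h at 0.916, 0.954 and 5.88 TPM. Every library from 16 h on lay below every 0 h library, whereas the groups from 72 h to 168 h overlapped each other and XEN (1.24 and 1.10 TPM). The change against 0 h after 24, 48, 72, 96 and 168 h was -1.51 ± 0.43, -2.12, -3.34, -4.08 and -3.38 on the log2 scale (limma adjusted p = 0.012, 3.5e-04, 1.3e-06, 7.7e-08 and 7.5e-07). The call at 24 h was lost without library 2 of that group (adjusted p = 0.065), with a pseudocount of 0.1 (0.075) and with libraries 1 and 2 averaged (0.15). Crabp1 was highest in library 3 in 6 of 7 KH2 groups, the library that also had the highest feeder marker sum in 6 of 7, and without library 3 the change at 168 h was -3.99 (adjusted p = 2.1e-08 in limma). The part of feeder RNA in these levels was not tested.

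Crabp2 (chr3:87948666-87953376), the carrier that delivers retinoic acid to its nuclear receptors, changed less than Crabp1. Its 0 h libraries read 6.31, 6.45 and 5.52 TPM and its 48 h libraries 2.44, 1.41 and 2.98 TPM, which did not overlap. At 168 h it was at 2.54, 4.45 and 3.53 TPM, still below every 0 h library. It was called lower at 48 h (-1.14 ± 0.27, limma adjusted p = 0.0015) and at 96 h (-1.07, adjusted p = 0.0018), while at 168 h the change was -0.67 with an adjusted p of 0.032, short of the size set for a call. Without library 2 of 48 h the change at that time was -0.94, and without library 2 of 96 h the change there was -0.87, both short of that size. XEN, at 4.25 and 3.30 TPM, lay within the range of the 168 h libraries, with a difference of 0.10 (95% interval -0.54 to 0.74) on the log2 scale. From 72 h on Crabp2 stood above Crabp1 in most libraries, the reverse of 0 h.

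Rdh10 (chr1:16105774-16133734), which carries out the first oxidation of retinol, had a higher mean at each successive time. That mean was 2.60 ± 0.49 TPM (SD, n = 3) at 0 h and 2.96, 3.57, 5.0, 7.96, 10.7 and 14.0 ± 1.0 TPM after 16, 24, 48, 72, 96 and 168 h. The 48 h libraries (5.20, 5.64 and 4.15 TPM) were all above those at 24 h (3.63, 3.10 and 3.98 TPM), and from there on no neighbouring groups overlapped. The change reached 1.33 ± 0.11 at 72 h, 1.71 at 96 h and 2.07 at 168 h on the log2 scale (limma adjusted p = 5.1e-09, 1.0e-10 and 3.8e-12), while each single step from 24 h on was at most 0.59. XEN read 8.85 and 10.1 TPM, below all 168 h libraries (13.6, 13.2 and 15.1 TPM), a difference of -0.52 that passed the adjusted p (0.0021 in limma) and not the size for a call.

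Of the genes of the second step, from retinal to retinoic acid, Aldh1a1 and Aldh1a2 had group means of at most 1.44 TPM. Aldh1a2 (chr9:71215789-71296243), the main retinoic acid-forming enzyme of the early embryo, read 0.853, 0.467 and 1.56 TPM at 0 h, 1.19, 1.04 and 1.18 TPM at 24 h and 0.335, 0.325 and 0.396 TPM at 48 h. At 168 h it was at 0.0305, 0.0609 and 0.213 TPM, and both XEN libraries were at 0.0303 TPM. No 168 h library overlapped a 0 h library, and the change was -0.80 ± 0.15 on the log2(TPM + 1) scale (limma adjusted p = 1.2e-04), a scale on which a gene under 1 TPM cannot fall by more than 1. With a pseudocount of 0.1 the same change was -2.36 (adjusted p = 1.6e-05) and was called. Aldh1a1 (chr19:20492715-20643465), the other member of the family among the 9, read 0.0102, 0.142 and 0.345 TPM at 0 h and 0.478, 0.802 and 0.862 TPM at 168 h, a change of 0.56 ± 0.17 (limma adjusted p = 0.0059) that was under the size for a call. It was called only in XEN, at 1.35 and 1.52 TPM, by 1.07 ± 0.19 above 0 h (limma adjusted p = 4.8e-05), and by 0.97, under the size for a call, without library 1 of 0 h. Aldh1a3, the third gene of the family and no member of the 9, read 0.924, 1.20 and 1.52 TPM at 0 h and 7.03, 6.54 and 6.49 TPM at 16 h, a rise of 1.80 ± 0.14 (adjusted p = 3.2e-08 in limma). Its 48 h libraries were at 3.37, 2.62 and 3.07 TPM and its 72 h libraries at 0.883, 0.689 and 1.03 TPM, overlapping those of 0 h, and it was called against 0 h at 16 and 24 h and at no later time.

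Cyp26a1 (chr19:37697798-37701536), the cytochrome P450 that clears retinoic acid, showed the largest change of the 9 at 168 h and the earliest call. The 0 h libraries read 0.0406, 0.193 and 0.233 TPM, and those at 16 h read 3.17, 3.66 and 4.72 TPM. At 24 h they read 3.65, 4.23 and 2.77 TPM, and at 48 h 6.05, 6.24 and 3.86 TPM, both overlapping the group before. At 72 h libraries 1 and 2 were at 41.4 and 40.1 TPM whereas library 3 was at 5.45 TPM, within the 48 h range. The 96 h libraries, at 19.2, 18.7 and 14.8 TPM, lay below libraries 1 and 2 of 72 h, and at 168 h the levels were 246, 218 and 132 TPM. The change against 0 h after 16, 24, 48, 72, 96 and 168 h was 2.06 ± 0.46, 1.97, 2.45, 4.28, 4.0 and 7.39 on the log2 scale (limma adjusted p = 0.0048, 0.0033, 1.9e-04, 1.4e-07, 3.1e-07 and 3.1e-11). With libraries 1 and 2 of each group averaged, which leaves 2 values per group, the 16 and 24 h changes were 2.10 and 1.88 and were not called (adjusted p = 0.12 and 0.094). The step from 48 to 72 h was 1.83 with all libraries and 2.73 without library 3 at 72 h (adjusted p = 0.0062 and 5.5e-08 in limma), and it was not called with only those 2 groups in the fit (0.14) or with libraries 1 and 2 averaged (0.19). The step from 96 to 168 h was 3.39 ± 0.46 (1.2e-05). XEN read 95.2 and 103 TPM, below each of the 168 h libraries, with a difference of -0.95 ± 0.52 (95% interval -2.04 to 0.14, adjusted p = 0.14). That difference was called when library 3 was left out of every group (-1.22, adjusted p = 6.0e-07).

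Cyp26b1, the other degrading enzyme that was expressed, is not among the 9 and had a different course. It read 0.264, 0.183 and 0.355 TPM at 0 h, 4.80, 4.80 and 5.57 TPM at 48 h, 7.37, 8.91 and 7.19 TPM at 72 h and 0.610, 0.914 and 2.05 TPM at 168 h. It was called higher at 48 h and at 72 h (2.26 and 2.80 ± 0.19 on the log2 scale, limma adjusted p = 7.2e-09 and 1.7e-10), and its fall from 96 to 168 h was -1.23 (3.8e-05), over the step in which Cyp26a1 rose most.

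Dhrs3 (chr4:144892827-144928209), which returns retinal to retinol, was below 1 TPM in all 0 h libraries (0.264, 0.447 and 0.822 TPM). It read 2.07, 3.51 and 1.05 TPM at 72 h, 1.24, 0.922 and 0.406 TPM at 96 h and 1.61, 3.25 and 2.78 TPM at 168 h. The libraries within a group differed by up to several fold, and among the Dox groups only 72 h and 168 h cleared the 0 h libraries. The change was 1.03 ± 0.28 at 72 h, 0.29 at 96 h and 1.22 at 168 h (limma adjusted p = 0.0033, 0.39 and 6.7e-04). The 72 h call ended without library 2 of that group (0.75), without library 1 of 0 h (0.91), with libraries 1 and 2 averaged (0.83) and after rescaling (0.99), in each case because the change was no longer above 1. XEN was higher than any induced library at 7.22 and 7.91 TPM, 1.30 ± 0.31 above 168 h (adjusted p = 0.0020 in limma).

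Rarb (chr14:16430839-16819156, minus strand), a retinoic acid receptor whose gene is a classic target of the receptor itself, stayed under 1 TPM in every library up to 96 h. Its 0 h libraries read 0.0812, 0.132 and 0.122 TPM, its 72 h libraries 0.801, 0.527 and 0.172 TPM and its 96 h libraries 0.457, 0.567 and 0.588 TPM. At 168 h it reached 4.73, 3.48 and 3.14 TPM, clear of all earlier libraries. The change was 0.47 at 96 h and 2.09 ± 0.15 at 168 h on the log2 scale (limma adjusted p = 0.0084 and 1.4e-10), and the step between those times was 1.63 ± 0.15 (8.0e-08). XEN, at 11.9 and 9.90 TPM, stood a further 1.32 ± 0.16 higher (adjusted p = 2.3e-06 in limma). Exons of Rarb overlap those of Top2b on the opposite strand, and the libraries were stranded. In library 3 of 72 h, where Cyp26a1 was low, Rarb, Dhrs3, Crabp2 and Rdh10 were also the lowest of their group, while Stra6, Crabp1, Aldh1a1 and Aldh1a2 were the highest.

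Between XEN and 168 h, 3 of 9 genes were called (13.9% of all genes), Stra6, Dhrs3 and Rarb, all higher in XEN. Crabp1, Crabp2 and Aldh1a2 differed by at most 0.44 on the log2 scale with wide intervals, -1.45 to 0.56 for Crabp1. Of the 12 feeder markers 3 were lower in XEN. By level in XEN the order was Stra6 (233 TPM), Cyp26a1 (99.1), Rarb (10.9), Rdh10 (9.45), Dhrs3 (7.56), Crabp2 (3.77), Aldh1a1 (1.44), Crabp1 (1.17) and Aldh1a2 (0.0303). At 0 h the order had been Crabp1 (29.7 TPM), Crabp2 (6.09), Rdh10 (2.60), Aldh1a2 (0.961) and Dhrs3 (0.511), then Aldh1a1, Cyp26a1, Rarb and Stra6 at 0.166 TPM or less, whose libraries overlapped. At 168 h Cyp26a1 led with 199 TPM, ahead of Stra6 with 94.4 and Rdh10 with 14.0 TPM.

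The genes most like each member were found by Pearson correlation of group mean log2(TPM + 1) over the 8 groups, as a description over points that share libraries. For Stra6 they were Mtmr2 (0.998), Cd9 (0.997) and Cyb5d2 (0.997), and for Rdh10 Arl8a (0.999), Ank (0.998) and Ube2g2 (0.998). For Rarb they were Prss12, Fmo1 and Enpep (0.997, 0.996 and 0.996), and for Cyp26a1 Rcor1, Nr6a1 and Tshz3 (0.995, 0.994 and 0.993). For Crabp1 they were Dtd2, Bard1 and Nnat (0.997, 0.996 and 0.994), for Crabp2 Gm37305, Cep55 and Gm50115 (0.983, 0.972 and 0.968), for Aldh1a1 Sphk1, Csnk1g3 and Endod1 (0.989, 0.985 and 0.984), for Aldh1a2 Helq, Dnah10 and BC002059 (0.994, 0.990 and 0.990) and for Dhrs3 Eri3, Pla2r1 and Sorbs3 (0.993, 0.986 and 0.986). Among the members themselves the profiles of Dhrs3 and Rarb were the closest (0.936), followed by Stra6 with Cyp26a1 (0.930), and Crabp1 ran opposite to Rdh10 (-0.940).

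The knockdown series asked what loss of Oct4 does while GATA6 is induced. Pou5f1, the gene of Oct4, ran from 782 through a median of 895 to 1194 TPM in siCTL and from 282 through 314 to 387 TPM in siOct4, lower in all 6 numbered pairs. Of the 5 retinoid genes in the table, which holds genes selected beforehand for responding to GATA6, only Cyp26a1 was called (1 of 5, against 2.67% of the 6264 genes tested with a size limit of 0.5 on the log2 scale). The siCTL libraries had Cyp26a1 at a lowest of 3.21, a median of 4.30 and a highest of 4.42 TPM, and the siOct4 libraries at 7.66, 23.02 and 37.4 TPM. The groups did not overlap, and Cyp26a1 was higher in siOct4 in 6 of 6 pairs, by 1.02 to 2.83 on the log2 scale. The change was 2.02 ± 0.34 (SE, limma adjusted p = 0.0039). The two-sided exact permutation test over samples, which ignores the numbered pairs, gave p = 0.00216, the smallest it can give. The exact test that flips signs within the 6 pairs gave p = 0.03125, also the smallest it can give. By consecutive libraries the difference was 1.03 in libraries 1 and 2, 2.80 in 3 and 4 and 2.24 in 5 and 6. Since consecutive libraries mostly resembled each other, they were also averaged, which left 3 values a group: the change was again 2.02 and was not called (adjusted p = 0.15), and it was called with the number as a block (0.011). It was not called in libraries 1 to 4 alone (1.91, adjusted p = 0.11 in limma).

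**Figure D3:**
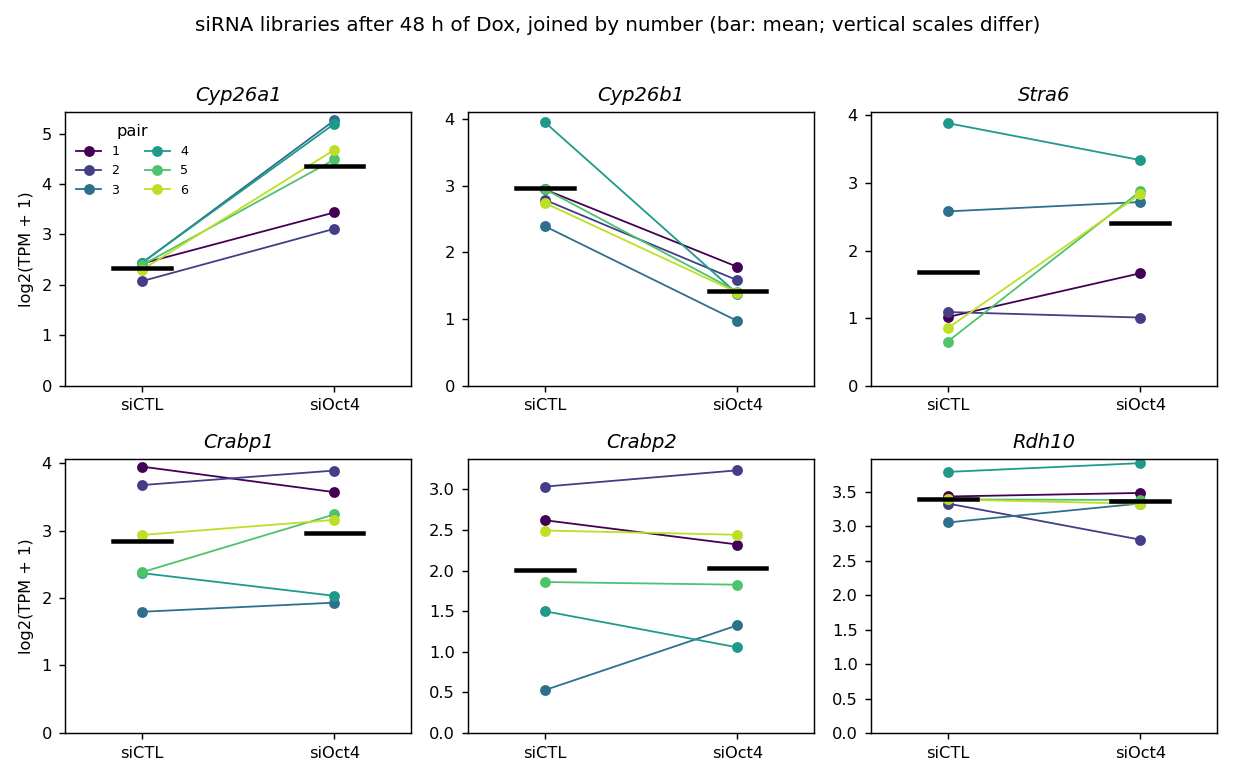
Level as log2(TPM + 1) on the vertical axis, whose scale differs between panels, in the siCTL and siOct4 libraries after 48 h of Dox; each line joins the libraries of one number, and the black bar is the group mean. All 6 lines rise for Cyp26a1 and all 6 fall for Cyp26b1, while those of Crabp1, Crabp2 and Rdh10 run in both directions.

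The other genes showed no call. Stra6 ran from 0.575 through 1.08 to 13.8 TPM in siCTL and from 1.01 through 5.86 to 9.12 TPM in siOct4, with 4 of 6 pairs higher and a change of 0.73 ± 0.54 (95% interval -0.43 to 1.89, limma adjusted p = 0.63). Its siCTL libraries 3 and 4 read 4.98 and 13.8 TPM, against at most 1.13 TPM in the other 4. By consecutive libraries the difference was 0.28 in libraries 1 and 2, -0.20 in 3 and 4 and 2.10 in 5 and 6, where Stra6 read 0.575 and 0.807 TPM in siCTL and 6.36 and 6.14 TPM in siOct4. Crabp1 ran from 2.47 to 14.5 TPM in siCTL and from 2.82 to 13.8 TPM in siOct4, a change of 0.12 (95% interval -0.77 to 1.01), and Crabp2 changed by 0.03 (-0.90 to 0.95). Rdh10 was the least spread, from 7.33 to 12.9 TPM and from 6.00 to 14.1 TPM, with a difference of -0.02 (95% interval -0.46 to 0.42). These intervals leave room for changes in either direction. The 6 feeder markers in the table summed to between 32.2 and 230 TPM in siCTL and between 30.6 and 236 TPM in siOct4, and none of them was called. Within the numbered pairs that sum moved in both directions. It was lower in siOct4 in pairs 1, 2 and 4 (207, 193 and 230 TPM against 72.4, 64.7 and 30.6 TPM) and higher in pairs 3, 5 and 6 (32.2, 40.6 and 49.3 TPM against 37.8, 236 and 210.0 TPM). Pairs 5 and 6, where Stra6 was higher in siOct4, are thus among those with the higher feeder sum, and its part in the Stra6 values was not tested. Cyp26a1 was higher in siOct4 in the 3 pairs where the feeder sum was lower and in the 3 where it was higher. The part of feeder RNA in the Cyp26a1 values was not tested either. Of the 12 PrE markers 2 were called lower in siOct4 and 0 higher, where 2.67% of all genes tested were called. These were Amn and Cubn, endocytic receptor genes of yolk sac endoderm (-1.43 and -2.55, limma adjusted p = 0.020 and 0.0064). The summed PrE markers were lower in siOct4 in 6 of 6 pairs. The drop in TPM was smallest in pair 6 (6592 in siCTL, 6456 in siOct4) and largest in pair 4 (11381 and 7198). These sums were not rescaled. The median-of-ratios scaling factor was 1.34 in siCTL library 4, the highest of the siRNA libraries, and 0.871 in siOct4 library 4. The size of the drop in pair 4 therefore depends on the scaling. The 1 mesoderm marker in the table ran from 6.34 to 16.1 TPM in siCTL and from 3.91 to 9.65 TPM in siOct4, lower in 6 of 6 pairs, and was not called.

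Of the other retinoid pathway genes, 66 were listed from general knowledge and 42 passed the filter in the induction table. Of the 5 other receptor genes tested (Rara, Rarg, Rxra, Rxrb and Rxrg), 0 were called higher and 2 lower at 168 h, where 39.1% of all genes tested were called. Rarg, the most abundant receptor of ES cells, read 54.0, 54.4 and 57.5 TPM at 0 h and 13.2, 14.9 and 27.7 TPM at 168 h (-1.59 ± 0.19, adjusted p = 3.5e-07 in limma), and Rara read 20.6, 21.8 and 18.3 TPM at 0 h against 11.1, 9.68 and 8.17 TPM (-1.004, 2.2e-06). The Rara call ended without library 1 or 2 of 0 h (-0.99 and -0.95), without library 3 of 168 h (-0.90) and with library 3 left out of every group (-0.97), each short of the size for a call. Rxrg, a heterodimer partner, was called at 16 h only, where it read 2.36, 2.98 and 2.24 TPM against at most 0.213 TPM at 0 h (1.62 ± 0.11, adjusted p = 5.8e-09). In XEN Rarb was thus above Rarg (2.11 and 1.83 TPM) and Rara (6.06 and 5.58 TPM), which it had been far below at 0 h.

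Of the 42 pathway genes tested, 3 were called at 16 h (Aldh1a3, Rxrg and Lrp2, all higher; 2.77% of all genes were called), though Lrp2 was not with libraries 1 and 2 averaged (adjusted p = 0.13 in limma). At 48 h 6 were higher and 4 lower (background 16.4%), and at 168 h 15 were higher and 7 lower (39.1%). Of 10 listed carriers and storage proteins 6 were tested, with 3 higher and 2 lower at 168 h. Lrp2, or megalin, an endocytic receptor that takes up RBP4 among many other proteins, rose from 4.24, 4.27 and 2.31 TPM to 266, 268 and 316 TPM. The plasma carrier genes Rbp4 and Ttr, at most 1.51 and 0 TPM at 0 h, read 30.2, 38.8 and 1.29 TPM and 52.4, 44.1 and 2.31 TPM at 168 h, high in libraries 1 and 2 and not in library 3, where feeder markers summed to 340 TPM. Their changes were 2.60 ± 0.65 and 4.32 ± 0.63 at 168 h (limma adjusted p = 0.0014 and 4.4e-06) and 3.92 and 5.62 without library 3, and with libraries 1 and 2 averaged that of Rbp4 was 1.92 and not called (adjusted p = 0.084). The intracellular carriers Rbp7 and Fabp5 fell (-2.49 and -1.37). Of 23 listed enzyme genes 11 were tested and 1 was called at 168 h, Dhrs4, which was lower. Of 22 genes listed as retinoic acid targets 14 were tested, with 10 higher and 2 lower at 168 h, and the other 8 were below the filter. Of the 10, 7 were below 1 TPM at 0 h and passed the filter only through a later group or XEN, so that the filter favours such genes and the count is a description. Meis1, Hoxb4 and Meis2, homeobox genes, rose by 3.85, 2.88 and 2.81, whereas Stra8 and Cdx1 fell by 1.24 and 1.80 on the log2 scale. From 96 to 168 h, the step in which Rarb rose, 10 pathway genes were called higher and 1 (Cyp26b1) lower (background 7.67%), led by Rbp4, Ttr, Bhlhe40, Zfp703 and Meis2 (3.24, 3.02, 1.89, 1.62 and 1.55). With libraries 1 and 2 averaged the calls of Rbp4, Ttr and Bhlhe40 at that step were lost (adjusted p = 0.063, 0.068 and 0.053 in limma). In XEN against 168 h 1 was higher and 8 lower (13.9%), led by Rarg, Lrp2, Rarres1, Hoxa5 and Rxra (-2.65, -2.53, -2.17, -1.54 and -1.41).

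**Figure D4:**
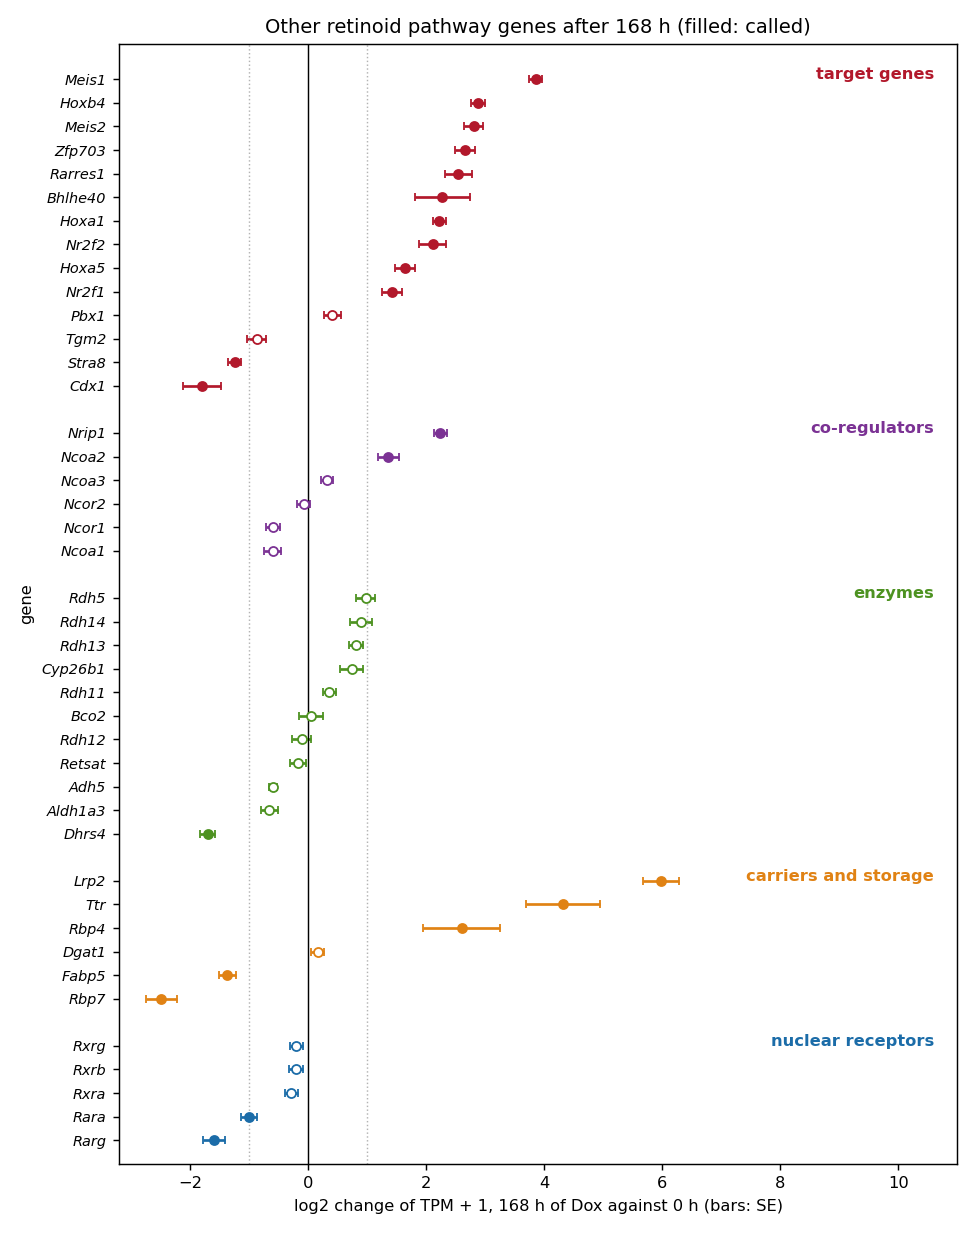
Change between 168 h of Dox and 0 h on the log2(TPM + 1) scale (horizontal axis, bars are SE) for the 42 tested pathway genes outside the 9, by group of function on the vertical axis; filled points were called and dotted lines mark a change of 1. The 10 target genes called higher lie between 1.43 and 3.85, and both called receptors, Rara and Rarg, lie below -1.

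In the knockdown 22 of the 66 pathway genes were tested and 1 was called, Cyp26b1, in the direction opposite to Cyp26a1. It ran from 4.26 through 6.31 to 14.5 TPM in siCTL and from 0.962 through 1.65 to 2.44 TPM in siOct4, lower in siOct4 in 6 of 6 pairs, with no overlap. The change was -1.54 ± 0.25 (limma adjusted p = 0.0030). Over samples the two-sided exact permutation p was 0.00216, and by the exact test with sign flips within the numbered pairs p was 0.03125. Cyp26b1 was not called with consecutive libraries averaged (adjusted p = 0.099), in libraries 1 to 4 alone (0.068) or in libraries 3 to 6 alone (0.077). With the replicate block, 3 pathway genes were called, Cyp26b1, Aldh1a3 (-0.76, adjusted p = 0.041) and Fabp5 (0.94, 0.0022). In every siOct4 library Cyp26a1 was above Cyp26b1, and in every siCTL library but number 3 it was below.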

How the data were processed

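RNA-seq was measured in 23 induction and 12 siRNA libraries of poly(A) RNA. Per the labels and the study's methods, the authors trimmed reads with cutadapt, aligned them with STAR to mm10 and quantified genes with RSEM in stranded mode. Outliers were omitted before TPM were made, and the methods do not say whether these were genes or libraries. Versions and the annotation are not given in the sources used here. The deposited values are TPM. In each induction library they sum to the same total and, below 5 TPM, 100% of them are whole multiples (within 0.02 of a step) of a smallest value of 0.0101 to 0.0102 TPM, which limits the precision of low levels. The siRNA table holds only the 6275 genes the authors selected as GATA6-responsive, with their own group means and text columns of their own clusters and siRNA effects, none of which was used. Depth is unknown, so no counting interval is given.

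Groups followed the labels. Where a symbol was on several rows of the induction table (60 symbols), only its most abundant row entered, log2(TPM + 1) was tested with limma 3.58.1 in R 4.3.3 (empirical Bayes with trend and robust settings), all 23 or all 12 libraries in 1 fit, genes with a group mean of at least 1 TPM, Benjamini-Hochberg adjustment over all of them, and calls at an adjusted p under 0.05 with a change above 1 (induction) or 0.5 (siRNA). The siRNA genes also had exact permutation tests over 924 splits, and exact tests over the 64 sign patterns of the numbered pairs. The scripts were tested on simulated data. The numbers pair the siRNA libraries: deviations of the 6 same-number pairs from their group means correlated at 0.236 to 0.706, on numbers taken from the labels, and the methods call these separate experiments. The 6 different-number pairs within consecutive libraries (1 and 2, 3 and 4, 5 and 6) correlated at -0.0523 to 0.459, so that a number and such a run of 2 libraries are not separated by these values. The methods call the induction libraries of a group independent without saying whether they came from separate cultures or days, so p-values measure the spread between those libraries. The members, gene lists and tests were chosen with earlier results of these data known. Named genes were every member, the 5 called pathway genes with the largest changes in a comparison, and the 3 tested genes with the profile closest to each member; others are named as chosen after their values were seen. A further gene of the pathway is not reported here. Fits varied scaling, filter, pseudocount, size limit, groups fitted, block and libraries left out. Promoter windows were from RefSeq and gene spans from GENCODE M21.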

Additional observations from a re-analysis of the deposited data

Results flagged for a closer look

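In a search over 12 sets of 6 siRNA libraries for a library far from the others, 1 was found, where chance flags about 1 in 20 sets. Cyp26b1 in siCTL library 4 was at 3.95 on the log2(TPM + 1) scale (14.5 TPM), against 2.39 to 2.95 in the other 5 siCTL libraries, a gap of 0.644 of the range of the group. Cyp26b1 was higher in each siCTL library than in any siOct4 library. Leaving out siCTL library 4, the highest, cannot change that separation.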

How the results depend on the processing

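Of 298 counts of called genes recomputed under the alternatives, 266 stayed within 1.5 times the value reported. In the induction series, a pseudocount of 0.1 gave 1 retinoid gene called at 24 h, 8 at 72 h and 2 from 24 to 48 h, and 6 pathway genes at 16 h and 18 at 48 h. Without the size limit, 8 retinoid genes were called at 72 h, 3 from 24 to 48 h, 2 from 72 to 96 h, 5 from 96 to 168 h and 5 between XEN and 168 h, and 10, 29, 35 and 22 pathway genes at 16 h, 48 h, 168 h and between XEN and 168 h. Of all 15057 genes, 1949, 8093, 9873 and 11286 were then called at 16, 48, 72 and 168 h. From 24 to 48 h, 72 to 96 h and 96 to 168 h they were 5645, 2477 and 6432, and between XEN and 168 h 7525. With only the 2 groups compared in the fit, 1 retinoid gene was called from 48 to 72 h and 0 from 72 to 96 h. With libraries 1 and 2 averaged, an alternative chosen after seeing the data, 0 were called at 16 h, 0 at 24 h, 1 from 48 to 72 h and 0 from 72 to 96 h, and with library 3 left out of every group, also chosen then, 1 from 16 to 24 h (Crabp1) and 2 from 72 to 96 h. Leaving out single libraries gave 1 to 2 at 24 h and 1 to 3 from 72 to 96 h. In the knockdown, consecutive libraries averaged gave 0 retinoid and 0 pathway genes, and 2 pathway genes with their number as a block. Libraries 1 to 4 alone gave 0 and 0, libraries 3 to 6 alone gave 0 pathway genes, rescaling gave 3 and the replicate block 3. The block changed no call among the 5 retinoid genes of the knockdown. In the induction series same-number libraries correlated by 0.0333 on average (-0.186 to 0.219 over 77 pairs), so the numbers were not taken to pair the samples, and with the replicate block 6 of 9 genes were called at 168 h, as without, and Cyp26a1 was called between XEN and 168 h (-1.15, limma adjusted p = 0.0498). Rescaling by the median of ratios moved the median over all genes by more than 0.1, from 0.088 to -0.046 at 168 h, from -0.139 to -0.022 between XEN and 168 h and from -0.124 to 0.008 in the knockdown, and the share of higher calls among all genes from 34.0% to 46.5% between XEN and 168 h, from 35.3% to 48.5% in the knockdown and from 68.1% to 53.7% from 96 to 168 h. The direction turned only for changes that were not called. On the log2 scale, single libraries left out gave -0.060 to 0.073 for Stra6, -0.035 to 0.28 for Aldh1a1 and -0.19 to 0.21 for Aldh1a2 at 16 h, -0.76 to 0.17 for Crabp1 and -0.065 to 0.25 for Crabp2 between XEN and 168 h, and -0.092 to 0.34 for Crabp1, -0.27 to 0.23 for Crabp2 and -0.13 to 0.090 for Rdh10 in the knockdown. Library 3 left out throughout gave 0.17 for Crabp1 between XEN and 168 h and 0.34 for Aldh1a2 at 16 h, where a pseudocount of 0.1 gave 0.042. In the knockdown, libraries 1 to 4 alone gave -0.091 for Crabp1, libraries 1, 2, 5 and 6 alone -0.046 for Crabp2, libraries 3 to 6 alone 0.082 for Rdh10, and rescaling 0.12 for Rdh10. The cause of these shifts was not tested.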
